A study of Citrus sinensis with 6 samples.

Results

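Many genes of sweet orange fruit (Citrus sinensis) are annotated with more than 1 protein-coding transcript. The transcript choice of these genes was measured in the albedo, the white inner layer of the peel. A gene was a member if its name in the transcript tables started with LOC and it had at least 2 predicted protein-coding transcripts, whose names start with XM. This gave 6987 of 31688 genes, and they hold 27133 of 59106 transcripts. Named genes that the rule leaves out have fewer such transcripts, so 0 genes were removed. All members together took 22.7% to 24.5% of the summed FPKM of a library (fragments scaled to transcript length and to library depth).

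The fruit had received 0.2 mM salicylic acid and the yeast Rhodotorula mucilaginosa, an antagonist of fruit rots, in 3 libraries (SA libraries). It had received just the yeast in 3 others (yeast-only libraries). All albedo was excised 3 days after inoculation. The yeast is common to both groups, no untreated fruit was analysed here, and the labels do not say what the inoculum was. They also do not say whether libraries came from separate fruit, so p-values cover the spread between the samples at hand, and this may be technical.

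One gene can give several transcripts when transcription starts at another promoter, when introns are spliced in another way, or when the RNA is cut and polyadenylated at another site. The protein can then differ, or only the untranslated ends. Plants often change splicing under stress, and retained introns are a common form of it. Salicylic acid is a plant hormone of defence against pathogens. The files give intervals, exon numbers and lengths of transcripts but no product names, so the function of most members is not stated here.

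Depth was 4.78 to 5.24 gigabases in SA libraries and 4.11 to 4.87 gigabases in yeast-only libraries. Genes of the chloroplast genome took 0.0301% to 0.0992% of covered bases in SA libraries and 0.0487% to 0.109% in yeast-only libraries. Without product names the tissue label was not checked against markers of albedo. The measure throughout is the share of a transcript, its FPKM as a percentage of the summed FPKM of all transcripts of its gene in that library. FPKM is per length, so a share stands for molecules and not for bases. In bulk tissue, a shift of a share within cells and a shift in the mix of cell types cannot be told apart.

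Of the 6987 members, 3753 have 2 predicted coding transcripts, 1542 have 3, 756 have 4, 414 have 5 and 522 have more, up to 30. Beside these 21439 transcripts the members hold 3917 transcripts assembled from the reads, which carry MSTRG names, 1765 non-coding XR transcripts and 12 curated NM transcripts. An assembled transcript occurs in 2322 members. A total of 169 members had no signal in any library. Shares were described for the 4219 members with a mean gene FPKM of at least 5 and a signal in every library.

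Most of these genes had 1 leading transcript, but rarely to the exclusion of the others. The dominant transcript, the one with the highest mean share over the 6 libraries, had a median share of 69.6% (quartiles 50.2% and 88.2%). It exceeded 90% in 922 genes (21.9%) and stayed under 50% in 1047 genes (24.8%). The distribution had 2 peaks, with 485 genes between 95% and 100%, 221 between 65% and 70%, and 320 between 50% and 55%. In the 2102 other genes with at least 2 transcripts at this level the median was 73.0%.

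**Figure D1:**
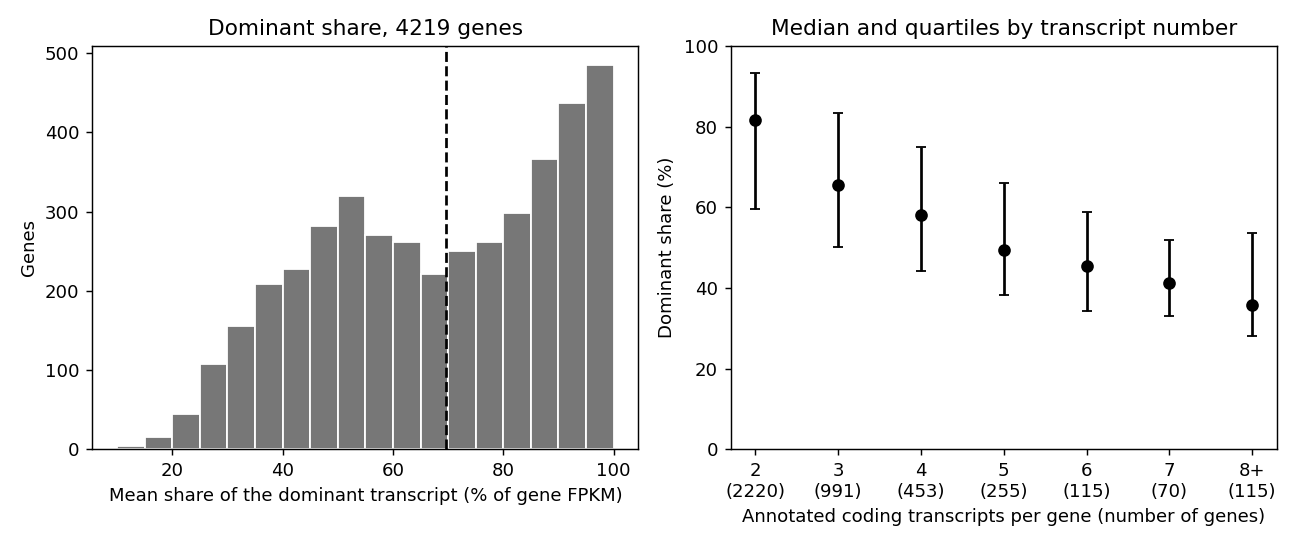
The left panel counts the 4219 genes by the mean share of their dominant transcript over the 6 libraries (percent of gene FPKM; the dashed line is the median, 69.6%). The right panel gives the median (points) and quartiles (bars) of that share by the number of predicted coding transcripts, which is 81.6% for 2220 genes with 2 and 35.8% for 115 genes with 8 or more.

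Dominance was weaker in genes with more annotated transcripts. The median dominant share was 81.6% over 2220 genes with 2 coding transcripts, 65.5% with 3, 58.1% with 4, 49.5% with 5 and 35.8% with 8 or more. Part of this order is arithmetic, since more transcripts divide the same total. Of the 12822 coding transcripts in the 4219 genes, 9079 (70.8%) were above 0 in all 6 libraries and 245 (1.91%) were listed at 0 in all 6.

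The dominant transcript was a predicted coding one in 3317 genes (78.6%) and an assembled one in 866 (20.5%). It was a non-coding one in 29 genes and a curated one in 7. Curated transcripts are annotated in 12 members, and 10 of these were in the 4219. Where a predicted coding transcript dominated, it was the longest of its gene in 1649 of 3317 genes (49.7%). That proportion was 58.8% with 2 coding transcripts, 47.0% with 3 and 34.3% with 4.

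Genes with exactly 2 transcripts, both predicted coding ones, show where such pairs differ. There were 1308 of them, with a median dominant share of 90.3%. In 759 pairs (58.0%) only the start differed, in 78 (5.96%) only the end, in 225 (17.2%) both, and in 246 (18.8%) neither, so that those differ inside. Starts were often very close, with a median gap of 6 bases over the 984 pairs whose starts differ, against 327 bases over the 303 pairs whose ends differ.

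The side of the dominant start depended on that gap. Among 562 pairs with starts at most 10 bases apart, the dominant transcript was the more upstream one in 72 (12.8%). Among 296 pairs with starts more than 50 bases apart, it was the more upstream one in 217 (73.3%). The median dominant share was 92.0% in the first set and 90.2% in the second. Models that start a few bases apart share nearly all their sequence, and how reads common to both were assigned was not stated.

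Whether the same transcript dominated in every library went with its mean share. Arithmetic accounts for part of this, since that mean is taken over the same 6 libraries. All 6 libraries had the same dominant transcript in 2537 of 4219 genes (60.1%). This held for 99.9% of the 922 genes with a dominant share over 90%, for 80.4% of the 1659 between 60% and 90%, and for 17.3% of the 1638 under 60%. The proportion was also higher in genes of higher level, with 45.3% of genes at 5 to 10 FPKM and 84.1% of genes at 100 FPKM or more. The median dominant share was 59.9% and 83.9% in those classes, so level and share were not separated here.

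The spread between replicates narrowed with level in the same way, and was likewise not separated from the dominant share. For dominant transcripts with a mean share of 5% to 95%, the median SD within groups was 12.2 percentage points over 1086 genes at 5 to 10 FPKM. It was 6.80 points over 1014 genes at 20 to 50 FPKM and 3.45 points over 211 genes at 100 FPKM or more. The median size of the difference between the groups was 7.80, 4.69 and 2.52 points in those 3 classes. These are differences between means of 3 libraries, so they cannot be set directly against the SD of single libraries.

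**Figure D2:**
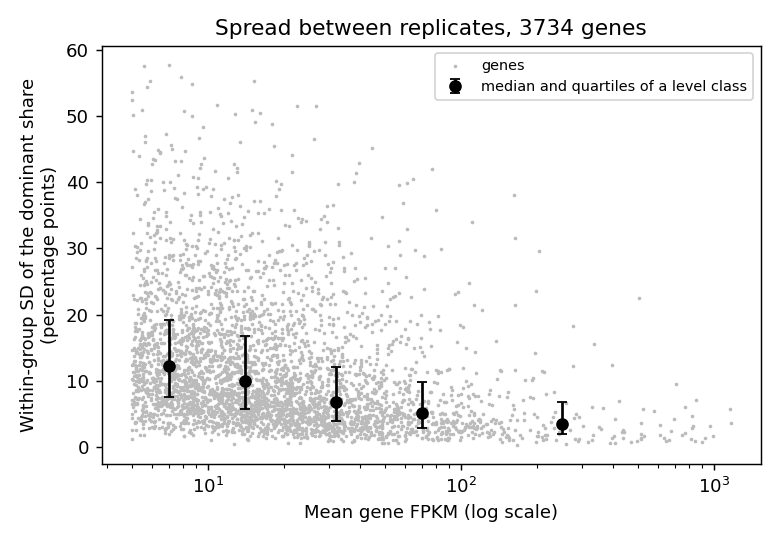
Each grey point is 1 of 3734 genes, with its mean FPKM on a logarithmic horizontal axis and the SD of its dominant share within groups in percentage points (mean of both groups, n = 3 each). Black points and bars are the median and quartiles of 5 level classes, with medians of 12.2 points in the lowest and 3.45 points in the highest.

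At the highest levels both kinds of gene were found, those with 1 transcript and those with several. LOC102613535, on NW_006257105.1 between 85259 and 87208, had 2 coding transcripts of 5 exons each that start at 85259 and 85322. The second, XM_006493282.3, took 49.3%, 50.6% and 49.9% of the gene in SA libraries 1 to 3, and 50.9%, 51.3% and 53.8% in yeast-only libraries. It thus split almost evenly with its partner in every library, at a mean gene level of 809 FPKM. The shares of the groups did not overlap, with a difference of -2.07 points between their means, which did not pass (adjusted p = 0.923 in limma).

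LOC102630069 (745 FPKM) was split nearly as evenly. Its transcript XM_006485986.3 took 56.7%, 53.0% and 56.4% in SA libraries and 52.3%, 54.7% and 55.0% in yeast-only libraries. The partner starts 1 base away, at 29123181 on NC_023052.1, so this split is between nearly the same models. In LOC102612866 (845 FPKM) the leading transcript XM_006475316.2 took 49.9%, 64.8% and 55.4% in SA libraries and 46.5%, 59.5% and 50.4% in yeast-only libraries. In both genes the groups overlapped.

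The gene of highest level among the evenly split ones, LOC102611846 (1154 FPKM), was led by an assembled transcript. MSTRG.20183.5 took 43.9%, 51.9% and 56.6% in SA libraries and 41.0%, 40.7% and 49.3% in yeast-only libraries. In LOC102611214 (963 FPKM, 10 coding transcripts) XM_025099731.1 took 38.0%, 33.4% and 35.2% in SA libraries and 41.8%, 33.9% and 36.7% in yeast-only libraries. That transcript spans 11859796 to 11866759 on NC_023051.1, minus strand, and XM_006481164.3, which was ahead of it in some libraries, starts at 11862271, so here the starts differ by several kilobases. The leading transcript separated the groups in neither gene.

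Other highly expressed genes were held by 1 transcript. XM_006493123.2 of LOC102608585 (995 FPKM) took 89.6%, 90.3% and 91.6% in SA libraries and 92.6%, 91.2% and 88.2% in yeast-only libraries. The total of that gene ran from 616 to 1209 FPKM in SA libraries and from 671 to 1934 FPKM in yeast-only libraries, so its transcript shares were far steadier than its level. XM_006467695.3 of LOC102616437 (893 FPKM) took 93.5%, 93.2% and 94.3% in SA libraries and 94.996%, 93.1% and 94.4% in yeast-only libraries. The dominant transcripts of LOC102619255 and LOC102624040, with means of 93.2% and 93.1%, overlapped between the groups as well.

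The reference table gives a synonym for 3 members, and these were chosen for that after the values were seen. LOC102578021 has the synonym CitHYb, a beta-carotene hydroxylase that makes xanthophylls. Its curated transcript NM_001288901.1 took 85.5%, 83.9% and 83.8% in SA libraries and 84.4%, 84.8% and 85.2% in yeast-only libraries. These are among the steadiest shares described here, at a gene level of 276 to 356 FPKM.

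LOC102578001 has the synonym CitPSY, phytoene synthase, which makes the first carotenoid of the pathway. Its curated transcript NM_001288886.1 took 87.8%, 87.7% and 86.6% in SA libraries and 86.9%, 85.2% and 86.3% in yeast-only libraries (adjusted p = 0.957 in limma). LOC102629211, with the synonym glgC of an ADP-glucose pyrophosphorylase, an enzyme of starch synthesis, was led by the predicted XM_006487154.3. That transcript took 89.2%, 93.7% and 56.3% in SA libraries and 86.2%, 84.4% and 78.1% in yeast-only libraries, and SA library 3, with the low share, also had the lowest gene total, 2.30 FPKM.

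The members with the most coding transcripts gave little to compare. LOC102619961, with 30 of them and 45 transcripts in all, spans 11261389 to 11591280 on NC_023048.1 and stood at 18.6 to 41.5 FPKM. Its dominant transcript, MSTRG.5042.16, took 14.1%, 15.5% and 9.63% in SA libraries and 10.7%, 5.05% and 11.7% in yeast-only libraries. LOC102626181, with 27, and LOC102613557, with 26, stayed below the level filter, with at most 0.450 FPKM and 3.29 FPKM in a library.

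Shares were compared between SA and yeast-only libraries. The test was limma on the arcsine square root of the share, with the variance trended on gene level, fitted to all genes with at least 2 transcripts and adjusted over all 15937 transcripts tested (Benjamini-Hochberg, threshold 0.05). Transcripts entered with a mean share of 5% to 95%, which left 11352 transcripts of 3734 members. Of these, 1 passed, 0.00881% of the members' transcripts, against 7 (0.0439%) of all transcripts tested. Counted by gene, 1 of 3734 members passed (0.0268%), against 0.0907% of all genes tested. With limma diffSplice, which asks whether the fold changes of a gene's transcripts differ (Simes test, adjusted p under 0.05), 25 members passed (0.689%), against 0.63% of all genes tested.

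An unadjusted p under 0.05 was reached by 571 member transcripts (5.03%), against 4.98% of all tested. Of the 571, 291 were higher in SA libraries (2.56%, against 2.55% of all tested) and 280 lower (2.47%, against 2.43%). The groups did not overlap in 1203 member transcripts, 10.6%, and in 10.6% of all tested. The members thus stood at the background in each of these counts. That background holds the members themselves, 11352 of its 15937 transcripts, so the figures could hardly lie far apart.

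Library by library, the shares lay about as far apart within groups as between them. The share that would have to move between transcripts to turn the profile of 1 library into that of another averaged 14.8% to 18.8% over the genes for the 6 pairs within groups. For the 9 pairs between groups it was 16.1% to 19.4%.

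**Figure D3:**
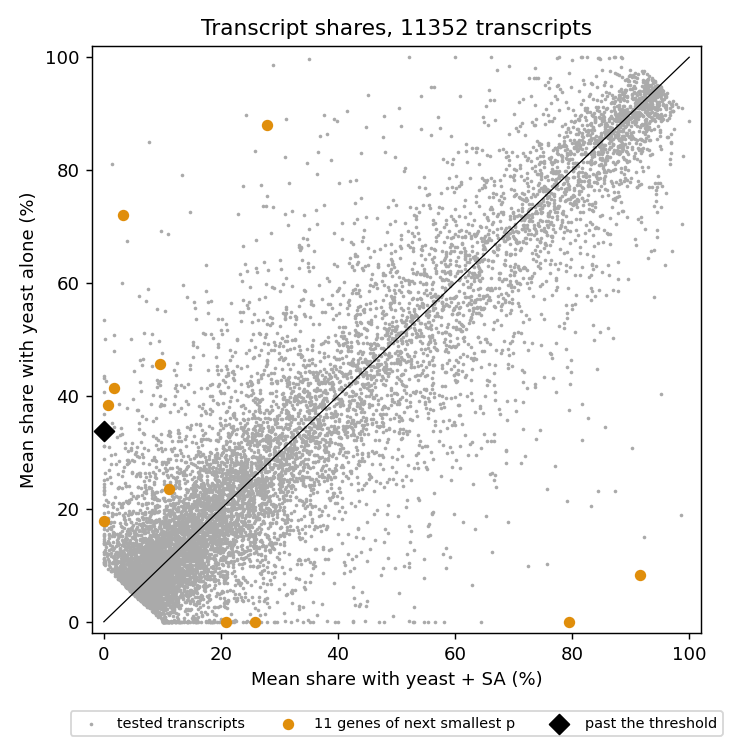
Each grey point is 1 of 11352 member transcripts, with its mean share over 3 SA libraries on the horizontal axis and over 3 yeast-only libraries on the vertical axis (percent of gene FPKM). The black diamond is XM_025099338.1, which passed at 0% and 33.8%, and orange points are the transcripts of smallest p in the 11 next genes, which did not pass.

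The transcript that passed was XM_025099338.1 of LOC102626016, and its share fell. No SA library showed any of it (0% in each), and it took 35.2%, 41.3% and 24.98% of the gene in the yeast-only libraries 1 to 3 (adjusted p = 0.0446 in limma). The other coding transcript, XM_006478159.3, took 30.2%, 48.5% and 52.3% in SA libraries and 3.46%, 0.740% and 5.13% in yeast-only libraries (adjusted p = 0.173). Both span 18175451 to 18179242 on NC_023050.1, minus strand, and the first has 5 exons in 1452 bases where the second has 4 exons in 1552 bases.

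The rest of this gene was held by assembled transcripts that reach beyond it. MSTRG.9711.1 and MSTRG.9711.2 span 41092 bases, down to 18138151, and so cover the neighbouring gene LOC102625166 on the same strand. MSTRG.9711.2 took 49.6% in SA library 1 and was listed at 0 in the other 5 libraries. The neighbour was far higher, with means of 307 FPKM in SA libraries and 443 FPKM in yeast-only libraries, and took 89.0% of the merged locus on average. Within that locus XM_025099338.1 held 0% in each SA library and 4.16%, 3.60% and 3.59% in yeast-only libraries, a mean of 1.89%, which is below the minimum share for a test.

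Among the 2 coding transcripts alone, the contrast was sharper. XM_025099338.1 took 0% in each of the 3 SA libraries, and 91.0%, 98.2% and 83.0% in yeast-only libraries (adjusted p = 0.0140 in limma). The total of the gene did not separate the groups, with 73.7, 15.8 and 28.5 FPKM in SA libraries and 45.1, 44.6 and 88.2 FPKM in yeast-only libraries. The call was lost when any of the 3 SA libraries, or yeast-only library 1 or 2, was left out (adjusted p = 0.0703 to 0.245 in limma). It held without yeast-only library 3 (adjusted p = 0.0350).

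A further 11 genes had the next smallest p-values and did not pass the share test (adjusted p = 0.0616 to 0.173 in limma). With limma diffSplice on the same libraries, LOC102607058, LOC102618722 and LOC102609201 passed at an adjusted p of 9.94e-05 each. LOC102612674 (adjusted p = 0.00241), LOC102626649 (0.029) and LOC102620434 (0.0401) also passed diffSplice, and the rest did not (0.0504 to 0.514). The shares of all 11 genes were well apart between the groups, but they were picked for that among 3734 genes.

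Some of these genes had another leading model in each group. In LOC102618722, on NC_023052.1 between 1344448 and 1350213, the 15-exon XM_006483005.3 took 1.59%, 6.56% and 1.49% in SA libraries and 70.2%, 59.98% and 85.9% in yeast-only libraries (adjusted p = 0.0852 in limma). The assembled MSTRG.13013.3 took 90.1%, 86.1% and 85.6% in SA libraries and 23.6%, 36.2% and 9.51% in yeast-only libraries (adjusted p = 0.122). That model has 1 exon fewer, 14, yet is longer, at 2472 bases against 2220. The gene total was 39.2 ± 2.91 FPKM in SA libraries and 39.8 ± 6.59 FPKM in yeast-only libraries (SD, n = 3 each).

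LOC102626649, on NC_023054.1 between 1939777 and 1948419, also had another leading model in each group. The assembled 19-exon MSTRG.17199.3 took 93.1%, 63.2% and 82.1% in SA libraries and was listed at 0 in all 3 yeast-only libraries (adjusted p = 0.0616). The annotated 20-exon XM_006488963.3 took 0.643%, 30.03% and 9.58% in SA libraries and 100%, 100% and 37.3% in yeast-only libraries. In yeast-only library 3 XM_006488964.3 held the remaining 62.7%, so that group did not share 1 dominant transcript.

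In LOC102615044 the 9-exon XM_006480335.3 took 92.5%, 99.9% and 82.4% in SA libraries and 7.67%, 8.50% and 8.56% in yeast-only libraries (adjusted p = 0.102). In yeast-only libraries no single model led, since XM_006480336.3 held 79.8% in replicate 1 and XM_006480337.3 held 59.98% and 70.8% in replicates 2 and 3. The gene stood at 4.71 to 5.89 FPKM in SA libraries and 6.05 to 7.22 FPKM in yeast-only libraries, close to the level filter, where the spread between replicates was widest.

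LOC102607058 has 16 transcripts and a steady total, 12.2 ± 0.463 FPKM in SA libraries and 12.4 ± 0.629 FPKM in yeast-only libraries (SD, n = 3 each). Its assembled MSTRG.9361.16 took 34.0%, 22.5% and 27.0% in SA libraries and 85.4%, 94.4% and 84.2% in yeast-only libraries (adjusted p = 0.102). XM_025098864.1 took 18.9%, 16.4% and 19.96% in SA libraries and was listed at 0 in yeast-only libraries (adjusted p = 0.118). The first spans 9803954 to 9808924 and the second 9803913 to 9808870 on NC_023050.1, and both have 7 exons. The assembled model had the largest share in all 6 libraries.

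LOC102609201 and LOC102620434 had an annotated transcript that was close to 0 in SA libraries. XM_006479095.3 of the first took 4.50%, 0.418% and 0.129% in SA libraries and 42.8%, 44.3% and 37.4% in yeast-only libraries (adjusted p = 0.111). In that gene the 14-exon MSTRG.10450.3 took 31.3%, 53.2% and 43.5% in SA libraries and 1.26%, 12.1% and 15.3% in yeast-only libraries (adjusted p = 0.716). The highest mean share of LOC102609201, 46.9%, belonged to MSTRG.10451.1, an assembled 2-exon model of 255 bases on the minus strand. The other models listed under that name lie on the plus strand. With sums by locus, XM_006479095.3 differed by -73.3 points instead of -39.8 (adjusted p = 0.163 in limma). XM_006473388.3 of the second gene took 1.77%, 0.243% and 0.350% in SA libraries and 44.5%, 44.7% and 26.1% in yeast-only libraries (adjusted p = 0.173). XM_006473388.3 starts at 26396886 on NC_023048.1, upstream of its partner XM_006473387.3 at 26397654, which took 71.1%, 59.0% and 67.8% in SA libraries and 32.9%, 0.189% and 45.3% in yeast-only libraries.

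LOC102610216 had 2 full-length coding transcripts that start 2 bases apart. XM_006467765.3 took 9.36%, 9.08% and 10.5% in SA libraries and 47.6%, 40.4% and 48.8% in yeast-only libraries (adjusted p = 0.111). Its share among the coding transcripts alone gave an adjusted p of 0.913. In SA libraries the assembled models led, MSTRG.2609.2 with 78.5% in replicate 1, and MSTRG.2609.1 with 41.9% and 42.6% in replicates 2 and 3. MSTRG.2609.2 has 6 exons at the 3' end of the gene.

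In the other genes the transcript of smallest p was a minor one. MSTRG.8867.4 of LOC102624117, a gene of high and steady level (815 ± 44.3 FPKM in SA libraries and 842 ± 24.7 FPKM in yeast-only libraries, SD, n = 3 each), took 11.2%, 11.5% and 10.6% in SA libraries. In yeast-only libraries it took 25.5%, 22.8% and 22.1% (adjusted p = 0.103). Its 6 transcripts lie between 4315764 and 4319573 on NC_023050.1 and have 12 to 14 exons, so the models differ inside. MSTRG.8867.2 had the highest mean share, with 36.3%, 34.1% and 39.0% in SA libraries and 29.5%, 25.8% and 33.4% in yeast-only libraries. The groups did not overlap in this dominant transcript either.

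XM_025099011.1 of LOC102612674 took at most 0.043% in SA libraries and 14.6%, 17.7% and 21.1% in yeast-only libraries (adjusted p = 0.0974). It starts at 35132443 on NC_023050.1, inside the interval of the dominant MSTRG.11064.1, which starts at 35131927. That dominant transcript did not overlap between the groups either. It took 96.9%, 89.4% and 96.7% in SA libraries and 78.2%, 78.0% and 71.1% in yeast-only libraries (adjusted p = 0.556 in limma). MSTRG.16901.3 of LOC102625565 took 21.9%, 15.8% and 25.1% in SA libraries and was listed at 0 in yeast-only libraries (adjusted p = 0.0671). It starts 9 bases from XM_025101950.1 and both have 3 exons, so that with transcripts within 20 bases pooled it was not tested on its own. XM_025098378.1 of LOC102627164 took 26.2%, 28.4% and 22.6% in SA libraries and was listed at 0 in yeast-only libraries (adjusted p = 0.103).

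**Figure D4:**
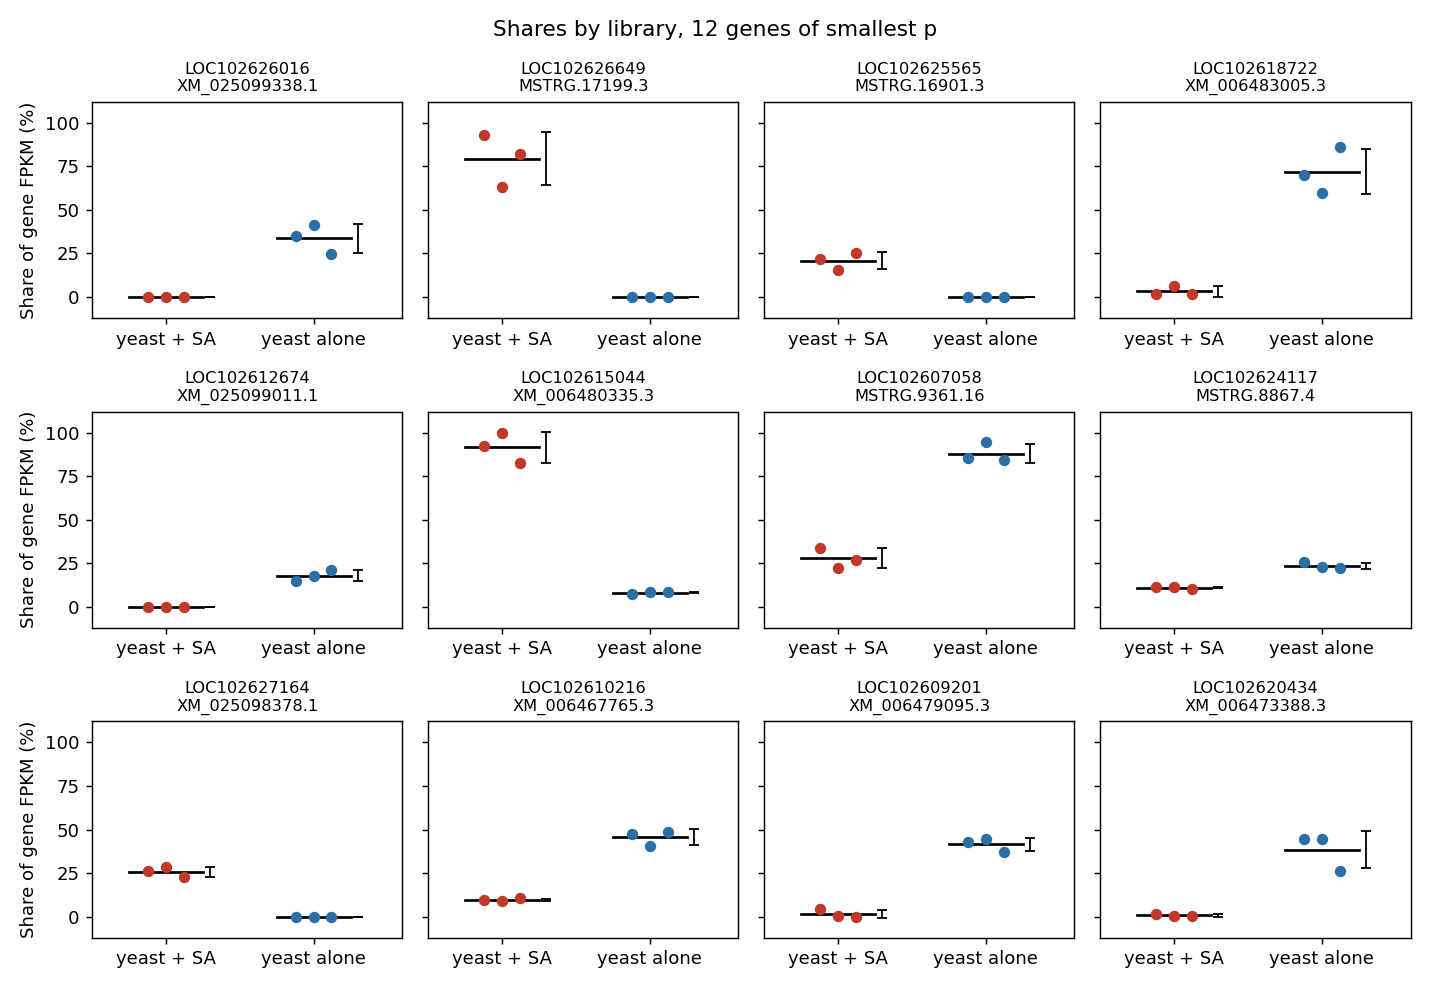
Each panel gives the share of 1 transcript (percent of gene FPKM) in the 3 SA libraries (red, left) and the 3 yeast-only libraries (blue, right), with the mean as a line and the SD as a bar. The groups do not overlap in any of the 12 genes, which were picked for their small p, and only XM_025099338.1 passed the share test.

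Transcripts listed at 0 throughout 1 group were counted. With a share of at least 5% in each library of the other group, 7 member transcripts were at 0 in all 3 SA libraries (0.0408% of 17140, against 0.0389% of all transcripts of such genes). In the opposite direction 20 were at 0 in all 3 yeast-only libraries (0.117%, against 0.125%). Depth averaged 5.01 ± 0.228 gigabases in SA libraries and 4.53 ± 0.384 gigabases in yeast-only libraries (SD, n = 3 each), and its part in these counts was not tested.

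In 19 of 4219 members (0.450%) 1 transcript dominated all 3 SA libraries and another all 3 yeast-only libraries, against 0.459% of all 6321 genes with at least 2 transcripts. Of the 8 with the highest level, 1 is LOC102618722. In LOC102611122 both models are annotated and share start and end, 23460705 and 23469850 on NC_023046.1. The 14-exon XM_006466244.3 took 57.6%, 51.2% and 51.2% in SA libraries and 22.3%, 39.5% and 26.7% in yeast-only libraries (adjusted p = 0.723 in limma). The 13-exon XM_006466246.3 took 29.7%, 38.2% and 38.4% in SA libraries and 58.6%, 54.6% and 55.8% in yeast-only libraries (adjusted p = 0.560).

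LOC102616507 has just 2 transcripts, of 10 exons each, whose starts lie at 20019851 and 20019799 on NC_023051.1, minus strand. The more upstream, XM_006482462.3, took 71.4%, 58.9% and 57.8% in SA libraries and 48.8%, 42.9% and 36.8% in yeast-only libraries (adjusted p = 0.916). In LOC102624081 the annotated XM_006467818.3 took 56.7%, 53.0% and 70.2% in SA libraries and 39.0%, 17.4% and 47.9% in yeast-only libraries, and MSTRG.2649.1, which ends further downstream, took most of the rest (adjusted p = 0.916 and 0.669). The groups do not overlap in these genes, which the choice of genes with another leader favours, and none passed.

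The lead was narrow in others. In LOC102611640 (88.6 FPKM) XM_025092742.1 took 47.8%, 48.7% and 49.0% in SA libraries and 42.8%, 46.0% and 41.6% in yeast-only libraries. MSTRG.19004.3 took 46.4%, 45.9% and 44.2% in SA libraries and 48.7%, 48.0% and 50.9% in yeast-only libraries, so the order turned on a few points. XM_015531827.2 of LOC102622382, a gene with 11 coding transcripts, likewise led in SA libraries, with 29.6%, 30.1% and 30.3%. It took 26.2%, 20.3% and 26.9% in yeast-only libraries. The leader in each yeast-only library was MSTRG.12906.1, a single-exon assembled transcript with no strand given. That model lies wholly beyond the end of the coding models, so this change of leader depends on signal outside them. For the last 2 of the 8, LOC102624008 and LOC102625766, adjusted p-values of their transcripts were at least 0.916 in limma.

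**Figure D5:**
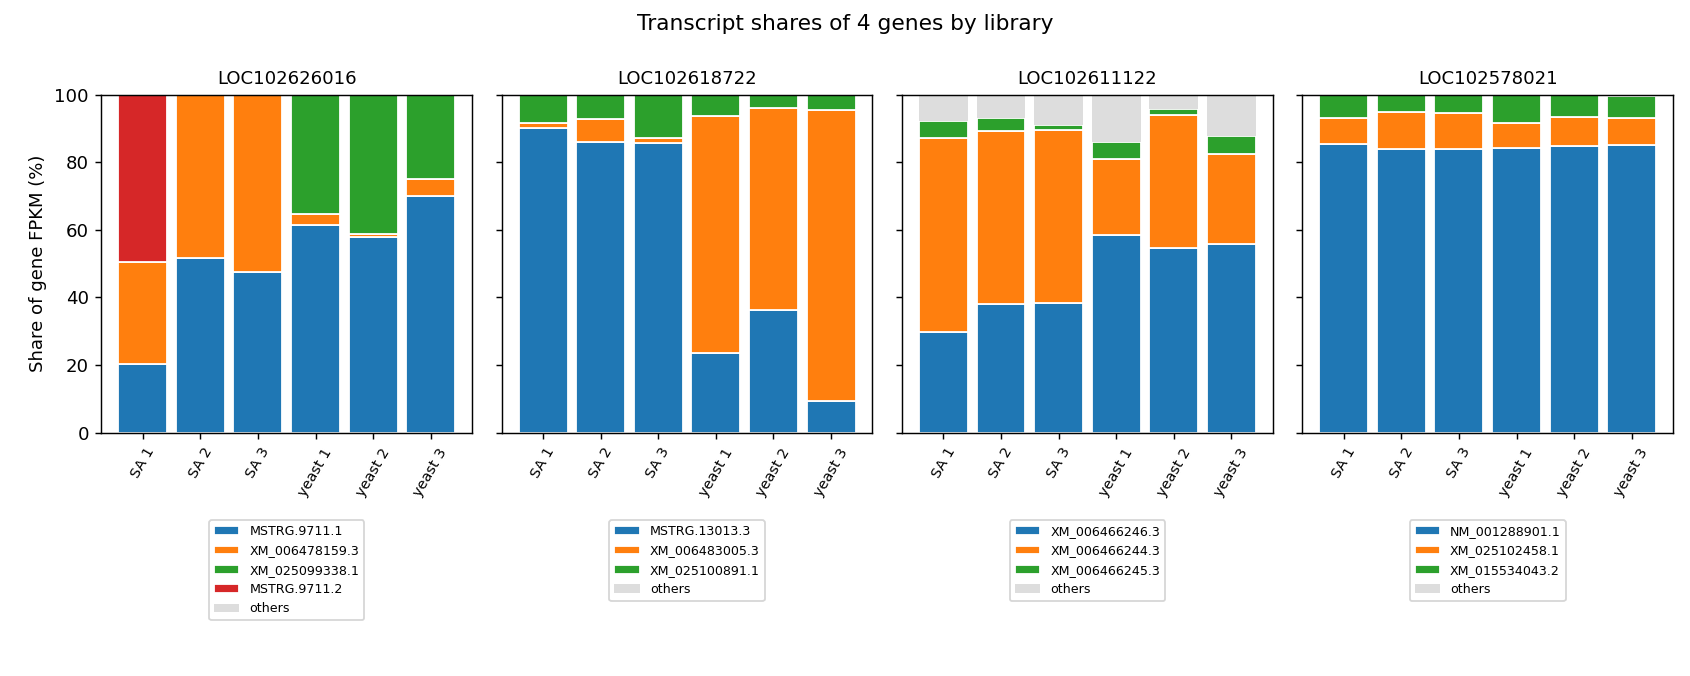
Stacked bars give the shares (percent of gene FPKM) of the transcripts of 4 genes in the 3 SA libraries (left) and the 3 yeast-only libraries (right), with transcripts of a mean share under 3% in grey. XM_025099338.1 of LOC102626016 is seen only in yeast-only libraries, the leading model differs between the groups in LOC102618722 and LOC102611122, and NM_001288901.1 of LOC102578021 stays between 83.8% and 85.5%.

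Whole-library values of transcript choice were compared with a two-sided exact permutation test over the 6 libraries, whose smallest possible p is 0.1. There were 5 such values, and p-values were also adjusted over them. The median over genes of the highest share was 74.8% ± 1.29 in SA libraries and 74.4% ± 1.15 in yeast-only libraries (SD, n = 3 each; exact p = 0.7, adjusted 0.8). The median effective number of transcripts, which counts equally used ones, was 1.92 ± 0.047 in SA libraries and 1.91 ± 0.033 in yeast-only libraries (SD, n = 3 each; exact p = 0.8, adjusted 0.8). Assembled transcripts took 13.8% ± 0.518 of the summed FPKM of members in SA libraries and 13.4% ± 0.399 in yeast-only libraries (SD, n = 3 each; exact p = 0.5, adjusted 0.8).

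The share of the longest coding transcript separated the groups. Its median over genes was 21.1%, 20.5% and 21.0% in SA libraries 1 to 3, and 22.2%, 21.7% and 22.6% in yeast-only libraries. Each SA library was thus below each yeast-only library, with a difference of -1.30 points (exact p = 0.1, the smallest possible, adjusted 0.5). The separation was lost with coding transcripts only in the sum (-2.02 points, exact p = 0.2) and in genes of at least 20 FPKM (-1.25 points, exact p = 0.2). It was also lost with near-identical transcripts pooled (-1.41 points, exact p = 0.3) and as a mean over genes (-0.526 points, exact p = 0.3), both added after seeing the data. Depth overlapped between the groups, since SA library 3 (4.78 gigabases) was shallower than yeast-only library 2 (4.87 gigabases), and its part in the result was not tested.

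In the 3295 genes whose coding transcripts start at different positions, the most upstream one took a median of 10.4%, 10.8% and 10.6% in SA libraries and 11.3%, 11.3% and 10.6% in yeast-only libraries. These values overlapped, with a difference of -0.475 points (exact p = 0.3, adjusted 0.75). With coding transcripts only in the sum the groups did not overlap (-1.52 points, exact p = 0.1, the smallest possible). Without yeast-only library 3 the difference was -0.726 points (exact p = 0.1).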

How the data were processed

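Libraries were made from total RNA and sequenced with an Illumina HiSeq, per the labels' protocols. Aligner, assembler and build were not given in the sources used here. For each transcript of each library, the authors deposited an FPKM and a mean coverage, a signal not scaled to depth, per the file headers. MSTRG names are of the kind StringTie gives to assembled transcripts. Deposited coverage divided by FPKM was constant within a library and gave its depth. A deposited gene table was not used. Coordinates are those of the files.

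Groups and replicate numbers came from sample titles. Members and lists were chosen with earlier results of these data known. Transcripts were summed by gene name, or by locus where there was none. In 470 members the transcripts under 1 gene name fall in more than 1 locus. Genes entered with a mean of at least 5 FPKM and a signal in every library, and transcripts with a mean share of 5% to 95%. Shares were tested with limma 3.58.1 in R 4.3.3, two-sided. The test was tried on data simulated from members of at least 20 FPKM with 2 tested transcripts. That trial did not cover genes of lower level or with more tested transcripts. Other values used Python 3.11.15 with pandas 2.3.3, numpy 2.4.6 and matplotlib 3.10.9. Whole-library values had an exact permutation test.

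Named genes are members that passed, filled to 12 by smallest p. Added to them are the 6 of highest level with a dominant share under 60%, and the 4 of highest level with 90% to 95%, the limits of which were set after the data were seen. The rule also takes up to 8 with another dominant transcript in each group, and the 3 with the most coding transcripts. Planned lists of product names, splicing factors and defence genes among them, matched nothing, since the files and the reference gene table give no product names. Of the members, 6645 had their symbol in that table (assembly DVS_A1.0), from which only names were taken.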

Additional observations from a re-analysis of the deposited data

How the results depend on the processing

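The number of member transcripts past the threshold was 1, and rested on the scale and the model. It was 0 with a log2 ratio at a pseudocount of 1, without the variance trend, with sums by locus, and with the replicate block (limma, with 603, 582, 556 and 558 at an unadjusted p under 0.05). It was 6 with a pseudocount of 0.1, 3 and 5 with a mean gene FPKM of at least 1 and 20, 12 in 10 genes with no filter, and 2 in 1 gene with coding transcripts only. Leaving out 1 library gave 0 to 10 transcripts in 0 to 8 genes. By genes it was 6, 3 and 5 in those settings, 0 where no transcript passed, and 25 with limma diffSplice, which called 7 of the 12 genes of smallest p. XM_025099338.1 passed in 8 of the 17 alternatives that hold it (adjusted p = 0.0140 to 0.564), and 0 of 320 results for 19 named transcripts changed sign. Settings that alter only the scale, the filters or the model leave the difference in points as it is. Its sign could not change there, so that count is no measure of stability. Genes with another dominant transcript in each group numbered 19, 12 with coding transcripts only, 27 and 4 with a mean gene FPKM of at least 1 and 20, and 43 to 69 with 1 library left out, where fewer libraries have to match. The difference in the median highest share, 0.386 points, turned to -0.107 with coding transcripts only, -0.419 at 1 FPKM, -0.192 as a mean over genes and -0.647 with near-identical transcripts pooled, and was -0.257 (yeast-only library 2 left out) and -0.244 (SA library 1 left out) to 1.08. That in effective number, 0.009, ran from -0.014 (SA library 2 left out) and -6e-05 (yeast-only library 3 left out) to 0.034. The longest transcript's difference, which separated the groups, kept its sign in every alternative run. The groups overlapped with coding transcripts only (-2.02), at 20 FPKM (-1.25), with pooling (-1.41) and as a mean over genes (-0.526). With 1 library left out it was -1.64 to -1.15, that of the most upstream one at -0.726 to -0.337 and that of assembled transcripts at 0.072 to 0.570. The most upstream transcript's difference, -0.475 points, was -1.52 with coding transcripts only, where the groups did not overlap. Deviations of libraries with the same replicate number correlated at 0.050, 0.054 and -0.058, and those with unlike numbers at -0.112 to 0.081. These values cannot tell whether samples were collected or handled in pairs. Pooling and the mean over genes were chosen after seeing the data, and the cause was not tested. In genes at 5 to 10 FPKM the median SD of the dominant share within groups was 12.2 points, and the part of depth in this was not tested.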
